A study of Mus musculus with 33 samples.

Results

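The genes described here are Ifit1, Ifit2, Ifit3, Mx1 and Mx2, antiviral effectors that interferon switches on, followed in the mouse kidney over the weeks after an adenovirus carrying interferon alpha. They are 5 of the 17097 genes named on the array. Members were taken from the probe sets annotated with a single gene symbol, with the brightest probe set on average over the 33 arrays standing for a gene. Each of the 5 genes had 1 such probe set, so all 5 were measured and no choice between probe sets was needed.

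The study followed nephritis in an interferon-accelerated model of lupus, and the arrays asked how the kidney transcriptome changed with time. All 33 kidneys came from different mice of the lupus-prone cross NZB X NZW F1 (BWF1), and each was hybridised to its own Affymetrix HT MG-430 PM array. The untreated group held 3 kidneys. The 6 other groups received ADV_IFNa, an adenovirus expressing mouse interferon alpha (Adv-IFNα), and held 5 kidneys each, taken at week 1, 2, 3, 5, 7 or 9. By the study's methods the mice were female, received the virus intravenously and were 8 or 9 weeks old at injection (the sources differ). The labels give neither an age nor a week for the untreated mice. No group received an empty virus, so the effects of the vector and of the interferon cannot be told apart, and a single untreated group cannot match the age of every week. The promoter of the interferon cassette is not given in the sources used here.

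Type I interferons bind a receptor made of IFNAR1 and IFNAR2, whose kinases JAK1 and TYK2 activate STAT2. It joins IRF9 in a complex that binds interferon-stimulated response elements in the promoters of its target genes. IFIT proteins bind viral or otherwise foreign RNA and hold back its translation, and Mx proteins are dynamin-like GTPases that trap viral nucleocapsids. In lupus nephritis such genes are widely used as readouts of interferon activity in blood and kidney.

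The promoters of the Ifit genes are printed first because these 3 genes differ in their matches to a core sequence of the interferon-stimulated response element. The core of the response element was searched as GAAANNGAAA on both strands of the 300 bases around each start site in RefSeq's promoters (build GRCm38.p6), with no other motif searched. It was found in 1131 of 32851 such windows, or 3.44%. Matches are in capitals, and a match read on the opposite strand appears as its reverse complement. Ifit1 and Ifit3 held 2 matches each, and Ifit2, for which the 60 bases before each of its 2 start sites are shown, held none in these windows. Other forms of the element and sequence outside the windows were not searched, so Ifit2 may still hold the element. Mx1 and Mx2 were not searched here.
Ifit1 (chr19:34640765-34640833, + strand): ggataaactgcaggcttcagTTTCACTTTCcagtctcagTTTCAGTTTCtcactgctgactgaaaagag
Ifit3 (chr19:34583353-34583436, + strand): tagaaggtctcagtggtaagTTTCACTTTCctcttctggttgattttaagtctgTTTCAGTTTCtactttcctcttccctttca
Ifit2, start site 1 (chr19:34550634-34550693, + strand): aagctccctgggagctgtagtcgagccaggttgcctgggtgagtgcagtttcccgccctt
Ifit2, start site 2 (chr19:34551028-34551087, + strand): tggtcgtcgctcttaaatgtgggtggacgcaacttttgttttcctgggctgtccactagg
Ifit1bl1, start site 1 (chr19:34602043-34602092, - strand): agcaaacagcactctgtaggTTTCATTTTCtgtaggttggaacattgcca

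The matches in Ifit1 began 104 and 85 bases before its start site, and those in Ifit3 began 156 and 122 bases before its own. The stretch printed for Ifit1 is also part of the promoter of its neighbour Ifit1bl2, which is read in the opposite direction: the 2 windows share 245 bases of the genome. Ifit3 has a near copy, Ifit3b, in which the 84 bases printed for Ifit3 recur letter for letter within an identical run of 169 bases. The relative Ifit1bl1 held 1 match at each of its 2 start sites. A match describes letters in a window and is not evidence that a factor binds there. The Ifit genes lie together on chromosome 19, in the order Ifit2, Ifit3, Ifit1bl1, Ifit3b, Ifit1bl2 and Ifit1. Mx1 and Mx2 lie on chromosome 16. RefSeq gives both as transcribed pseudogenes in the reference mouse, a C57BL/6J animal, so that the arrays read their transcripts without saying whether a protein is made in BWF1 mice.

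The values deposited by the authors were log2 intensities after RMA, so a difference of 1 is a 2-fold difference in signal, and levels of different probe sets cannot be set against each other. Array medians lay between 3.97 and 4.09 and no array stood far from the rest, with correlations between arrays of 0.965 to 0.994. The 4 measured proximal tubule markers, which check the labelled tissue, summed to an intensity of 4441 to 4555 in untreated and 2154 to 5209 in treated kidneys. The log2 ratio of 3′ to 5′ beta-actin signal, a measure of RNA integrity, was 1.47 to 1.75 in untreated and 1.68 to 2.19 in treated kidneys. The lowest kidney of weeks 2, 3, 5, 7 and 9 had 1.87, 1.79, 1.77, 1.79 and 1.94, above every untreated one. At week 1 the lowest kidney, at 1.68, lay within the untreated range, but the mean was 1.95 against 1.57 in untreated kidneys. In the changes against untreated at every week, treatment and this ratio cannot be fully told apart. Globin signal, a measure of blood in the tissue, had its lowest mean at week 1, with kidneys at 4.63 to 5.64, and its widest range at week 7, from 3.65 to 7.61, against 6.10 to 6.97 in untreated kidneys and 6.98 to 8.08 at week 9. Tissue was assayed in bulk, so a change in the number of cells expressing a gene and a change in RNA per cell cannot be told apart.

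Expression of all 5 genes was higher in treated than in untreated kidneys in every week on average. The measured change was largest for Ifit1. At week 1 no pair of genes passed an adjusted test of unequal rise. Every pair with Ifit1 had the smallest exact permutation p that 3 against 5 kidneys allow, 0.0357, which adjustment raised to 0.0510. At week 1 all 5 rose (5 of 5 past an adjusted p of 0.05), where 1.00% of the 45037 probe sets tested rose. Ifit1, Ifit2, Ifit3 and Mx1 also rose at each later week, giving 4 of 5 at week 2 (0.877% of all probe sets), 4 of 5 at week 3 (1.07%), 4 of 5 at week 5 (1.85%) and 4 of 5 at week 9 (6.41%). At week 7 Mx2 passed the test again, which made 5 of 5 (9.85% of all probe sets). The median log2 change of the 5 was 3.23 at week 1, 2.49 at week 2, 2.61 at week 3, 1.68 at week 5, 2.75 at week 7 and 1.87 at week 9, while the median over all probe sets lay between -0.063 and 0.017. These comparisons share the same 3 untreated arrays.

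Ifit1, a sensor of RNA that lacks the host's cap methylation, read 6.87, 5.31 and 4.15 on the log2 scale in untreated replicates 1, 2 and 3. At week 1 the 5 kidneys read 10.20, 10.74, 10.47, 10.41 and 10.42. Every treated kidney lay more than 3 units above the highest untreated one at this time, and the 5 treated values were close together. At week 2 they read 9.00, 9.80, 9.96, 9.38 and 9.60, at week 3 9.49, 9.57, 9.76, 9.64 and 10.15, and at week 5 8.81, 7.99, 8.65, 9.15 and 8.79. These 15 kidneys, too, lay above all of the untreated ones. At week 7 values were 10.44, 9.93, 9.25, 8.81 and 10.08, and at week 9 they were 8.26, 7.42, 9.02, 9.42 and 9.43. All 30 treated kidneys thus exceeded the highest untreated value, with the lowest margin at week 9 in replicate 2. The log2 change against untreated was 5.00 at week 1 (SE 0.41, 95% interval 4.17 to 5.84, 32.0-fold, adjusted p = 8.78e-10), and the smallest was 3.23 at week 5 (SE 0.41, 9.41-fold, adjusted p = 9.82e-06). By size of rise Ifit1 ranked 1 among the 17097 named genes at weeks 1, 2 and 3, then 6 at week 5, 4 at week 7 and 11 at week 9.

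Ifit3, which works in complexes with other IFIT proteins, read 9.52, 8.42 and 8.16 in the untreated kidneys. At week 1 values were 11.62, 12.17, 12.01, 11.94 and 11.91. The groups did not overlap. At week 2 the kidneys read 10.77, 11.22, 11.43, 10.84 and 11.70, at week 3 11.11, 11.20, 11.62, 11.30 and 11.32, and at week 5 10.76, 9.97, 10.12, 10.67 and 10.39. The week 5 kidneys were the nearest to the untreated range of these groups and did not reach it. At week 7 values were 11.94, 11.61, 10.73, 10.51 and 11.33, and at week 9 they were 10.15, 9.70, 10.07, 11.00 and 11.04. All 30 treated kidneys exceeded the highest untreated one. The change against untreated was 3.23 at week 1 (SE 0.30, adjusted p = 7.65e-09) and had its smallest values at week 5 (1.68, adjusted p = 0.00105) and week 9 (1.69, adjusted p = 3.08e-04). Ifit3b had no probe set of its own in the annotation, and whether the Ifit3 probes also read its near copy is not given in the sources used here.

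Ifit2, an IFIT protein that binds AU-rich RNA, read 6.46, 5.25 and 5.16 in the untreated kidneys. At week 1 values were 7.62, 8.27, 7.96, 7.70 and 8.19. All 5 were higher than any untreated value. At week 2 the kidneys read 7.34, 7.36, 7.54, 7.28 and 7.97, at week 3 7.78, 7.51, 8.04, 7.66 and 7.75, and at week 5 7.51, 6.93, 7.01, 7.53 and 7.31. At week 7 values were 9.65, 8.93, 7.41, 7.41 and 8.46, and at week 9 they were 7.58, 6.78, 7.00, 7.67 and 8.40. Ifit2 was the gene of the 5 whose highest mean fell at week 7 and not at week 1, although the week 7 kidneys spread from within the week 5 range to far above it. The change against untreated was 2.33 at week 1 (SE 0.36, adjusted p = 8.80e-05), 1.64 at week 5 (adjusted p = 0.00748) and 2.75 at week 7 (adjusted p = 2.77e-06). The call at week 5 was lost without untreated replicate 3 (change 1.40, adjusted p = 0.0779).

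Mx1, whose protein acts in the nucleus and restricts influenza virus where an intact allele is carried, read 6.16, 4.78 and 3.37 in the untreated kidneys, the widest untreated spread of the 5 genes (SD 1.40, n = 3). At week 1 values were 7.64, 8.42, 8.05, 8.31 and 7.90. No week 1 kidney overlapped with the untreated group. At week 2 the kidneys read 7.02, 7.62, 7.96, 7.18 and 7.38, at week 3 7.26, 8.22, 7.94, 7.52 and 7.65, and at week 5 7.78, 6.81, 6.84, 7.59 and 7.69. At week 7 values were 8.83, 6.59, 7.45, 7.14 and 7.95, and at week 9 they were 7.51, 6.16, 7.85, 8.08 and 7.81. Of 30 treated kidneys, 29 exceeded the highest untreated one, the exception being week 9 replicate 2. No difference of Mx1 between the treated weeks compared passed in limma. Mx1 differed by -0.63 between weeks 1 and 2 (unadjusted exact permutation p = 0.0317). Its rise against untreated was 3.29 at week 1 (SE 0.44, adjusted p = 7.12e-06), 2.57 at week 5 (adjusted p = 5.17e-04) and 2.71 at week 9 (adjusted p = 9.84e-05). At week 9 a two-sided exact permutation test of the single gene gave p = 0.0714.

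Mx2, which encodes the cytoplasmic Mx protein, was dim. It read 3.04, 3.20 and 2.93 in the untreated kidneys, below the median of 4.03 over all values of the table, and RMA compresses changes at such levels. At week 1 values were 4.83, 4.97, 4.50, 5.18 and 5.07. The week 1 kidneys were clear of the untreated ones. At week 2 they read 4.36, 3.29, 4.87, 4.0 and 4.50, at week 3 4.19, 3.53, 4.0, 4.49 and 4.46, and at week 5 3.51, 3.47, 3.42, 3.92 and 4.12. At week 7 values were 5.57, 4.59, 3.68, 3.45 and 4.61, and at week 9 they were 3.31, 3.05, 4.17, 4.53 and 3.98. Again 29 of 30 treated kidneys lay above all of the untreated ones and week 9 replicate 2 did not. Mx2 rose at week 1 (1.85, SE 0.35, 3.61-fold, adjusted p = 0.00165) and week 7 (1.32, adjusted p = 0.00763). Its changes of 1.15 at week 2 (adjusted p = 0.0870), 1.08 at week 3 (adjusted p = 0.117), 0.63 at week 5 (adjusted p = 0.356) and 0.75 at week 9 (adjusted p = 0.148) did not pass. When the beta-actin ratio entered the fit, the week 1 and week 7 calls were lost too (adjusted p = 0.10 and 0.14). That at week 7 was also lost with the 2 groups fitted alone (adjusted p = 0.0656). Without week 2 replicate 2 the week 2 change passed (1.38, adjusted p = 0.0375). The week 3 change passed with the 2 groups fitted alone (adjusted p = 0.0226). An exact permutation test of the single gene gave p = 0.0357 at weeks 2, 3 and 5 and p = 0.0714 at week 9. The former is the smallest that 3 against 5 kidneys allow.

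**Figure D1:**
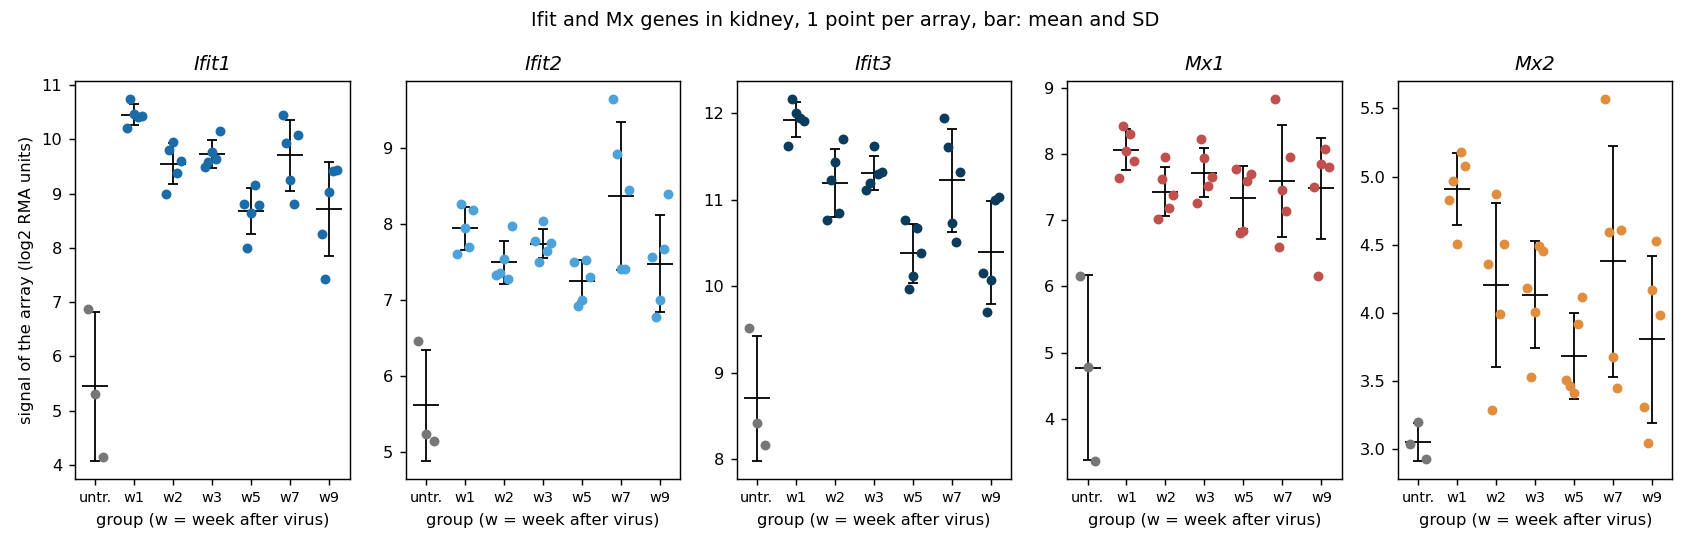
Signal of the 5 genes in each of the 33 kidneys (log2 RMA units, y axis, on a scale of its own for each gene) by group (x axis: untreated, then week after the virus), with 1 point per array and a bar for mean and SD. In Ifit1, Ifit2 and Ifit3 all 30 treated points lie above the 3 untreated points, and the treated points at weeks 7 and 9 are spread more widely than those at weeks 1 to 5, while the untreated points of Ifit1 (SD 1.37) and Ifit3 (SD 0.72) spread more than those of any treated week.

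**Figure D2:**
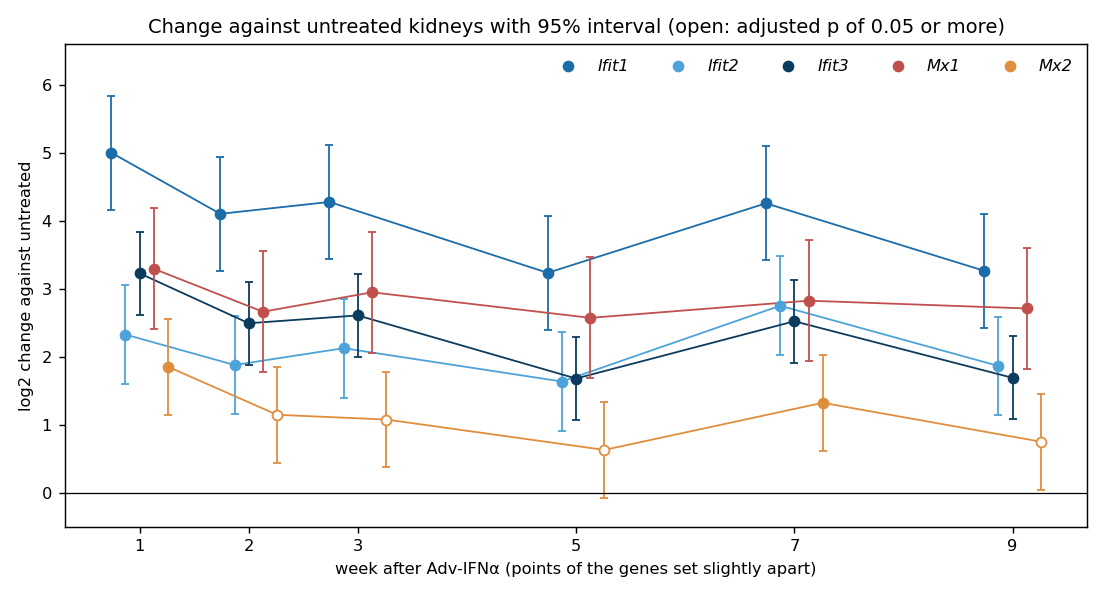
Change of each gene against the 3 untreated kidneys (log2, y axis) by week after the virus (x axis), with 95% intervals from limma and open points where the adjusted p was 0.05 or more. Ifit1 runs from 5.00 at week 1 to 3.26 at week 9, Mx1 stays between 2.57 and 3.29, and 4 of the 6 Mx2 points are open.

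The sizes of the rises were then set against each other, gene by gene within each kidney, which needs no comparison of levels between probe sets. At week 1 the rise of Ifit1 exceeded that of Mx1 by 1.71, that of Ifit3 by 1.77, that of Ifit2 by 2.67 and that of Mx2 by 3.15. The last value is limited by the dim untreated signal of Mx2, at which RMA compresses changes. Ifit3 and Mx1 rose by nearly the same amount, with a difference of -0.067 for Ifit3 minus Mx1 (exact permutation p = 0.750). None of the 10 pairs passed after adjustment. Of these, 7 reached the smallest two-sided exact p that 3 against 5 kidneys allow, 0.0357, which became 0.0510 when adjusted over the 10 pairs.

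Between week 1 and week 9 the 5 genes did not decline alike. Ifit1 fell by 1.74 (SE 0.36, 95% interval -2.46 to -1.01, adjusted p = 0.00153), Ifit3 fell by 1.54 (SE 0.26, 95% interval -2.07 to -1.01, adjusted p = 2.12e-04) and Mx2 fell by 1.10 (SE 0.30, adjusted p = 0.0154). These are 3 of 5 genes, against 4.64% of all probe sets that fell. The differences of -0.46 for Ifit2 (95% interval -1.09 to 0.17, adjusted p = 0.422) and -0.58 for Mx1 (95% interval -1.35 to 0.19, adjusted p = 0.404) did not pass. In the pairwise test 4 of 10 pairs declined unequally, each with an adjusted exact permutation p of 0.0198. Ifit1 fell further than Ifit2 by 1.28 and further than Mx1 by 1.15. Ifit3 fell further than Ifit2 by 1.07 and further than Mx1 by 0.95. The pairs Ifit1 with Ifit3 (a difference of 0.20 in size, exact permutation p = 0.357) and Ifit2 with Mx1 (0.12, exact permutation p = 0.722) did not pass.

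The decline was recomputed with the globin signal as a covariate, since that signal did not overlap between week 1 and week 9. Ifit3 still fell, while Ifit1 (change -1.39, adjusted p = 0.0871) and Mx2 (-1.31, adjusted p = 0.0524) no longer passed. The fall of Mx2 was also lost without week 9 replicate 1 (adjusted p = 0.0636) or replicate 2 (adjusted p = 0.0508). Over the same interval 7 of 10 macrophage and monocyte markers rose. No share of all probe sets that rose between these weeks is given, so this count has no background. The summed intensity of these markers went from 499 to 571 at week 1 to 599 to 1466 at week 9, after 285 to 323 in untreated kidneys. The integrin Itgam, a defining marker of this list, was at or below 2.35 in every array. The part of these cells in the result was not tested.

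From week to week the calls were few. The shares of all probe sets given here are those past the adjusted threshold in limma. No such share was computed for an unadjusted p or for the exact permutation test, so those counts have no background. Between weeks 1 and 2 none of the 5 genes passed in limma (0.0400% of all probe sets fell), although Ifit1, Ifit3 and Mx2 had an unadjusted p under 0.05 and all 5 did in the exact permutation test. The differences ran from -0.90 for Ifit1 to -0.45 for Ifit2. Between weeks 2 and 3 none passed in limma (0% of all probe sets rose and 0.0111% fell), with 0 at an unadjusted p under 0.05 and 0 by the exact permutation test. Between weeks 3 and 5 none passed in limma (0% of all probe sets fell), with 2 at an unadjusted p under 0.05 (Ifit1 at -1.04 and Ifit3 at -0.93) and 3 by the exact permutation test. Between weeks 7 and 9 none passed in limma (0.0577% of all probe sets fell), with 3 at an unadjusted p under 0.05 (Ifit1, Ifit2 and Ifit3, at -0.99, -0.89 and -0.83) and 0 by the exact permutation test.

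Between weeks 5 and 7, 2 of the 5 genes rose, against 4.72% of all probe sets. Ifit2 rose by 1.11 (SE 0.31, adjusted p = 0.0201) and Ifit3 by 0.84 (SE 0.26, adjusted p = 0.0385). Ifit1 differed by 1.02 (adjusted p = 0.0705), Mx2 by 0.69 (adjusted p = 0.167) and Mx1 by 0.25 (adjusted p = 0.785). Both calls were lost with the globin signal in the fit (adjusted p = 0.107 for Ifit2 and 0.230 for Ifit3) and with the 2 groups fitted alone (0.0981 and 0.0786). They also rested on single kidneys: neither gene passed without week 5 replicate 2 or 3 or without week 7 replicate 1, 2 or 5, and Ifit3 was also lost without week 5 replicate 5. Without week 7 replicate 4, the lowest of its week in 4 of the 5 genes, 4 genes passed, Ifit1 (1.24, adjusted p = 0.0191) and Mx2 (0.93, adjusted p = 0.0353) among them. Over the same interval all 4 measured proximal tubule markers fell, with a median change of -0.79, and both measured erythroid markers fell, with a median of -1.64. No share of all probe sets that fell between these weeks is given, so these counts have no background. The part of these markers in the result was not tested.

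A joint test asked whether a gene differed among the 6 treated weeks at all, without the untreated kidneys in the contrast. It passed for 3 of 5 genes, against 15.4% of all probe sets: Ifit3 (adjusted p = 1.83e-04), Ifit1 (adjusted p = 0.00212) and Mx2 (adjusted p = 0.0325). Ifit2 (adjusted p = 0.0824) and Mx1 (adjusted p = 0.672) did not pass. Leaving out week 7 replicate 3 or 4 or week 9 replicate 5 brought Ifit2 past the threshold, the smallest of the 3 adjusted p being 0.0167, as did weighting the arrays by quality (0.0215). The call of Mx2 was lost on leaving out any of 8 single kidneys, the largest adjusted p being 0.0823 without week 1 replicate 4, or on adding globin to the fit (adjusted p = 0.149).

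Ranked by mean level, Ifit1 and Ifit3 had the same order of groups: week 1, then weeks 3, 7, 2, 9 and 5, and untreated last. Week 1 was clear of week 3 in both genes, with no overlap of the 5 against 5 kidneys and a difference of 0.72 for Ifit1 and 0.62 for Ifit3. Mx1 followed week 1, 3, 7, 9, 2 and 5, and Mx2 week 1, 7, 2, 3, 9 and 5. Ifit2 had week 7 on top, ahead of week 1 by 0.42 (exact permutation p = 0.405). In all 5 genes week 5 had the lowest treated mean. The week 5 kidneys still lay above the untreated ones, although the change of Mx2 did not pass in limma. How many of all probe sets were separated in this way was not counted. None of the 30 steps between neighbours in these orders passed an exact permutation test adjusted over the 30, where the smallest adjusted p was 0.119. In each gene the step from week 5 to untreated had the smallest exact p that 3 against 5 kidneys allow, 0.0357, or 0.153 adjusted. The neighbours were also set by the same means, so these tests do not show that neighbouring groups were alike.

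The kidneys of a week grew less alike late in the course. The pooled SD of Ifit2 was 0.26 over weeks 1, 2, 3 and 5 and 0.82 over weeks 7 and 9, a ratio of 3.12. The ratio was 2.36 for Ifit1, 2.09 for Mx1, 2.03 for Ifit3 and 1.79 for Mx2. Over all probe sets tested the median ratio was 1.12, and 12.5% exceeded the lowest of the 5. Some of the late kidneys were high or low in most of the genes together. Replicate 1 was the highest kidney of week 7 in 5 of 5 genes, at 1.03 above the week's mean over the 5 genes. Replicate 4 was the lowest of week 7 in 4 of 5, at -0.79, and replicate 2 was the lowest of week 9 in 5 of 5, at -0.95. In others the genes parted. In week 7 replicate 2, Mx1 lay at -1.0, the lowest of its week, with Ifit2 at 0.55 and Ifit3 at 0.39. In week 9 replicate 3, Ifit2 and Ifit3 lay at -0.48 and -0.32 and Ifit1, Mx1 and Mx2 at 0.31, 0.37 and 0.36.

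With each week's mean taken out, the 10 pairs of genes correlated over the 30 treated kidneys with Pearson's r from 0.49 to 0.89. The tightest pair was Ifit2 and Ifit3 (r = 0.89, rho = 0.87, permutation p adjusted over the 10 pairs 5.00e-05, and r = 0.86 without the 2 kidneys farthest from the median). Ifit1 and Ifit3 followed (r = 0.85, rho = 0.83, adjusted permutation p = 5.00e-05, and r = 0.80 without the 2 farthest). Both permutation p-values are the smallest that 100000 resamples can give after adjustment. The loosest was Ifit2 with Mx1 (r = 0.49, rho = 0.43, adjusted permutation p = 0.0698 and 0.0456 in turn), which fell to 0.30 without the 2 farthest kidneys. Mx1 and Mx2 (r = 0.50, rho = 0.48, adjusted permutation p = 0.0414 and 0.0265) fell to 0.25 without them. Their r stood at 0.073 over the 20 kidneys of weeks 1 to 5, against 0.73 over the 10 of weeks 7 and 9. Their relation thus rested on a few late kidneys. The other pairs with Mx2 were also looser in weeks 1 to 5 than in weeks 7 and 9. Their r was 0.23 against 0.91 for Ifit1, 0.34 against 0.79 for Ifit2 and 0.25 against 0.86 for Ifit3. Of the 10 pairs, only Ifit3 with Mx1 went the other way (0.70 against 0.59).

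**Figure D3:**
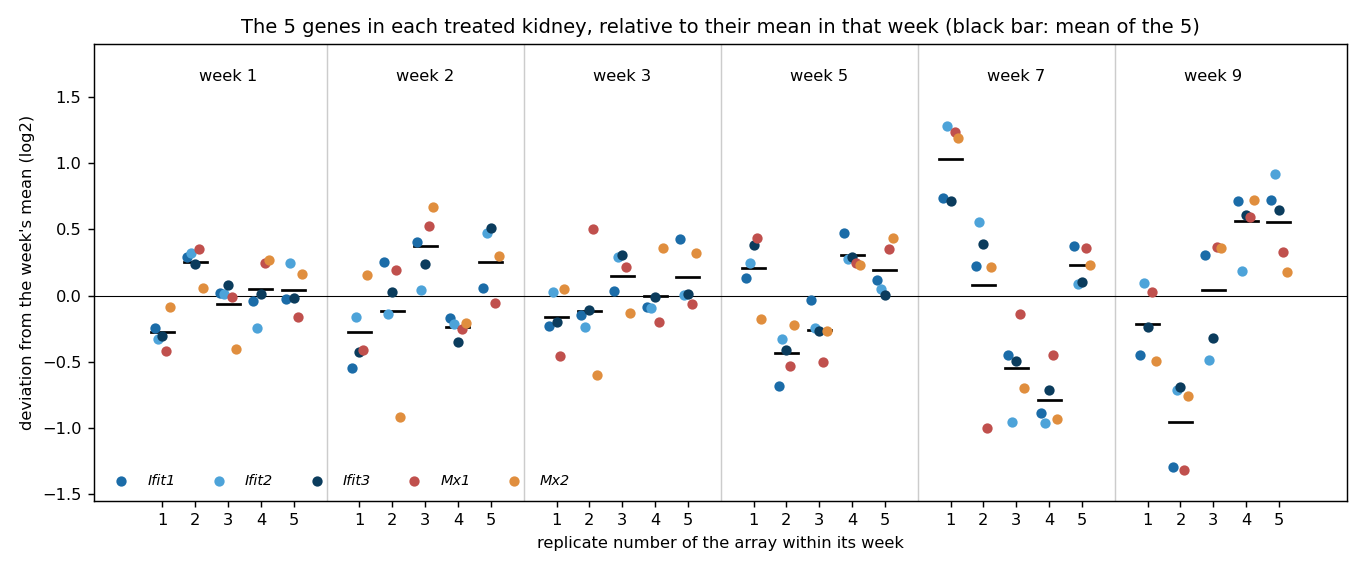
Deviation of each gene from its mean in that week (log2, y axis) for each of the 30 treated kidneys (x axis, replicate number within its week), with a black bar for the mean of the 5 genes. Bars run from -0.44 to 0.38 in weeks 1 to 5 and reach 1.03 (week 7 replicate 1) and -0.95 (week 9 replicate 2) later.

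The mean deviation of the 5 genes was set beside 11 measures of cell content and RNA quality over the same 30 kidneys, as a description. None of the 11 correlations passed a permutation test adjusted over the 11. The highest correlation was with the mean of the macrophage and monocyte markers (r = 0.65, rho = 0.58, adjusted permutation p = 0.0828 and 0.0973 in turn). Its r became 0.48 without the 2 kidneys farthest from the median. The lowest was with the proximal tubule markers (r = -0.68, rho = -0.48, adjusted permutation p = 0.0828 and 0.198 in turn), where r became -0.51. Within weeks 1 to 5 these were 0.48 and -0.0018, and within weeks 7 and 9 they were 0.69 and -0.79. In week 7 replicate 1 the macrophage markers deviated by 0.53 and the tubule markers by -0.46 from their week's mean on the log2 scale. In week 9 replicate 2 they deviated by -0.55 and 0.50. Not all late kidneys followed: in week 9 replicate 1 the macrophage markers deviated by 0.58 and the tubule markers by -0.38 with the 5 genes at -0.21, and in week 9 replicate 3 the macrophage markers deviated by -0.44 with the 5 genes at 0.046. The correlation with the beta-actin ratio was -0.032 and that with globin was 0.045. The part of macrophages or of tubule loss in the spread was not tested.

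The untreated kidneys also differed among themselves in these genes. Replicate 1 was the highest and replicate 3 the lowest in 4 of 5, the exception being Mx2, and the median gap between the highest and lowest untreated kidney was 1.36. The same order was found in 18.3% of all probe sets tested, where the median gap was 0.41. Among 17 other antiviral effectors it was found in 5, and among 8 genes known for their response to interferon gamma it was also found in 5. These 3 kidneys enter every change against untreated: the week 1 change of Ifit1 ranged from 4.36 to 5.72, and that of Mx1 from 2.59 to 3.99, as single kidneys were left out.

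None of the measured relatives of the 5 genes passed the test against untreated in limma in any week, and of the 2 Ifit relatives 0 had an unadjusted p under 0.05. Ifit1bl1, an Ifit1-like gene of the same cluster, read 4.27 ± 0.57 (SD, n = 3) in untreated kidneys and 4.66 ± 0.21 (SD, n = 5) at week 1. Its largest change against untreated was 0.42 at week 5 (95% interval -0.091 to 0.92, adjusted p = 0.405). Ifit1bl2, whose promoter window overlaps that of Ifit1, stayed near the bottom of the scale with group means of 1.20 to 1.41, and its changes lay between -0.21 and -0.048. Of 7 dynamin superfamily genes related to Mx, which reshape membranes, 0 passed against untreated in any week in limma, with 1 to 4 at an unadjusted p under 0.05 and median changes between -0.36 and -0.0065.

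Upstream of these genes, none of the measured receptor and kinase genes passed against untreated, while the transcription factors rose. STAT2 and IRF9 are parts of the complex that binds the response element. Stat2 read 5.28 ± 0.45 (SD, n = 3) in untreated kidneys, and its change was 2.53 at week 1 (adjusted p = 1.07e-07) and 1.66 at week 9 (adjusted p = 1.21e-04). Irf9 rose by 1.70 at week 1 (adjusted p = 2.53e-05), by 1.00 at week 5 (adjusted p = 0.0169) and by 1.17 at week 9 (adjusted p = 0.00140). Both passed in all 6 weeks, making 2 of 6 measured genes of this list in each. Ifnar2 had changes of 0.52 to 0.68 (adjusted p from 0.0748 to 0.187), Ifnar1 of -0.18 to 0.33, Jak1 of -0.31 to 0.042 and Tyk2 of -0.23 to 0.44, and none of these passed. Between weeks 5 and 7, 2 of the 6 measured genes of this list rose, against 4.72% of all probe sets. From week 1 to week 9 Stat2 fell by 0.86 (adjusted p = 0.0158).

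Among genes that restrain the pathway, Usp18, which displaces JAK1 from the receptor, was the one with a large change. It rose by 3.86 at week 1 (adjusted p = 3.92e-09) and by 2.48 at week 9 (adjusted p = 1.53e-05), and fell by 1.39 between these weeks (adjusted p = 0.00244). Pias1, a SUMO ligase that restrains cytokine signalling, rose by 0.45 at week 2, 0.44 at week 3 and 0.31 at week 9 (adjusted p = 0.0248, 0.0243 and 0.0447). Socs1 had changes between -0.59 and -0.31 that did not pass. Socs3, induced by cytokines such as interleukin 6, did not pass against untreated but rose by 1.01 from week 1 to week 9 (adjusted p = 0.0245), opposite in direction to Ifit1 and Ifit3. The interferon genes themselves gave few calls: of 6 measured, 0 passed in limma at weeks 1, 2, 3 and 5 (1, 0, 2 and 1 at an unadjusted p under 0.05) and 1 at weeks 7 and 9, Ifna4 in each case, with changes of 0.54 (adjusted p = 0.0247) and 0.50 (adjusted p = 0.0394). Apart from Ifna1, their probe sets had untreated means of 1.27 (Ifna2) to 2.98 (Ifna5), below the table's median of 4.03, where RMA compresses changes, so that a change in these genes may not have been detectable.

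Other antiviral effectors rose with the 5 genes. Of 17 measured, 17 rose at week 1, then 16, 16, 15, 17 and 17 at weeks 2, 3, 5, 7 and 9, with a median change of 2.48 at week 1, 1.68 at week 5 and 1.87 at week 9. Oasl2, Oas3 and Oasl1, of the family of 2′-5′ oligoadenylate synthetases and their relatives, led at week 1 with 4.41, 4.21 and 3.73. From week 1 to week 9 5 of the 17 fell, among them Oasl1 (-1.23, adjusted p = 0.00825), while Oas3 differed by -0.023 (adjusted p = 0.985). Of 8 genes known for their response to interferon gamma 5 rose at week 1 and 7 at week 9. Of 6 RNA sensors and their adaptor 4 rose at week 1 and 5 at week 9.

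**Figure D4:**
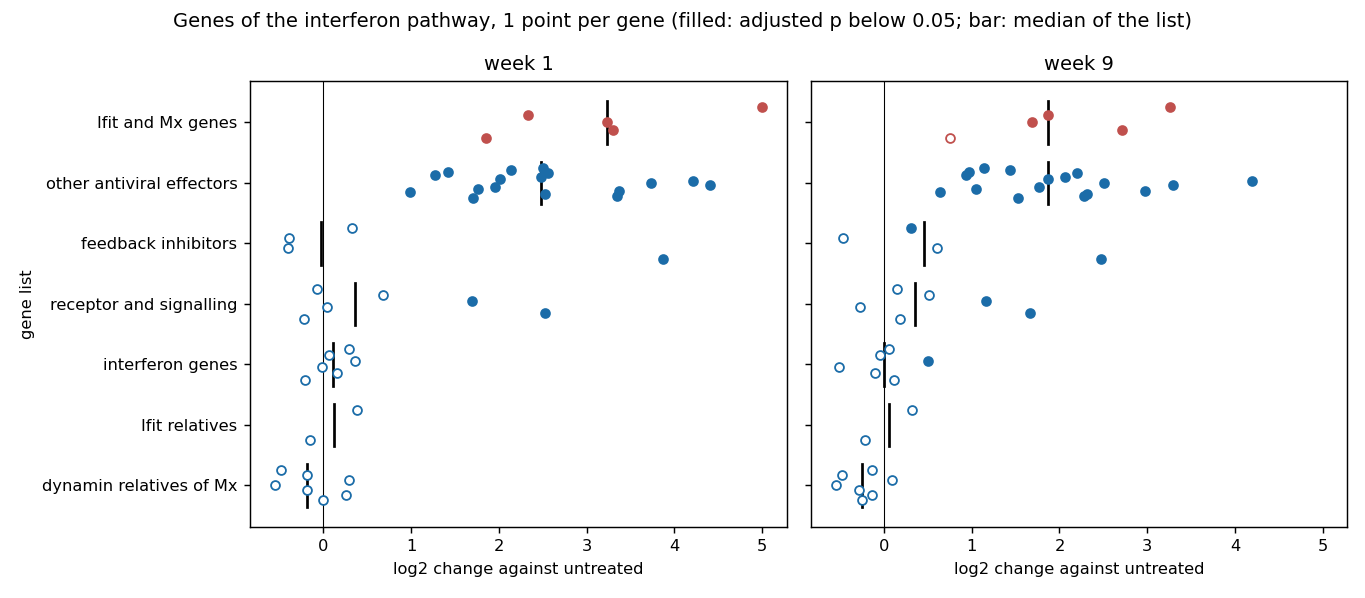
Change against untreated (log2, x axis) at week 1 (left) and week 9 (right) of every measured gene in 7 lists (y axis), filled where the adjusted p was below 0.05, with a bar at the list's median. The 5 Ifit and Mx genes and the 17 other effectors lie to the right of 0 in both panels, while the relatives and the interferon genes lie around 0.

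The genes whose course was most like that of the 5 were sought among the 17092 other named genes, as a description. Over the 30 treated kidneys as they stand, the highest Pearson correlations with the mean of the 5 were those of Usp18 (0.95), Irf7 (0.95), Stat2 (0.94), Ifih1 (0.94) and Xaf1 (0.93), where the median gene had 0.071. Irf7 encodes a transcription factor that amplifies interferon production, Ifih1 the RNA sensor MDA5, and Xaf1 an interferon-induced promoter of apoptosis. With the weeks' means taken out the list was Stat2 (0.94), Parp9 (0.94), Phf11a (0.92), Parp14 (0.92) and Usp18 (0.92), against a median of 0.089. The 5 genes' own correlations with their mean ran from 0.79 for Mx1 to 0.92 for Ifit1 on that scale. The points share arrays and normalization.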

How the data were processed

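RNA of 33 whole kidneys was extracted with Trizol, labelled with NuGEN Ovation reagents and hybridised to 1 array each. The authors deposited log2 values after RMA; RMA and Partek are named, without versions, in the submitters' processing notes, and the logarithm's base was taken from the range of 0.585 to 13.9. RMA equalises distributions between arrays and compresses changes of dim probe sets. Without the 104 control probe sets, 45037 were fitted with limma 3.58.1 (R 4.3.3) as 7 group means over all 33 arrays, with 26 residual degrees of freedom and Benjamini-Hochberg adjustment over all probe sets per contrast. A gene rose or fell where the adjusted p was below 0.05. Exact two-sided permutation tests were used for pairs of genes and single values, and 100000 permutations for correlations (scipy 1.17.1). The fit was tested on simulated data. The precision is limited by the number of arrays. No batch is named in the labels. Genes were named from probe sets with 1 symbol in the platform annotation, which 28898 had and 551 had with several. The named genes were the members, the measured Ifit relatives, receptor, signalling and feedback genes, at most 3 others per list, and the 5 genes most correlated with the members' mean on each scale. Members and lists were chosen with earlier results of these data known. Alternatives covered scaling, array weights, prior variance, groups fitted, dim probe sets, covariates, the replicate number and single arrays left out.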

Additional observations from a re-analysis of the deposited data

Results flagged for a closer look

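The change of Ifit1 against untreated differed between week 9 and week 1 by -1.74 (adjusted p = 0.00153 in limma), that of Ifit3 by -1.54 (adjusted p = 2.12e-04) and that of Mx2 by -1.10 (adjusted p = 0.0154), where the difference between the time points was tested itself. In week 5 replicate 5 Ifit1bl1 read 3.88, below the other 4 kidneys of that week by 0.721 of the whole range. It was the only such value in 42 groups of 5 kidneys examined for the 5 genes and their 2 relatives, where chance alone gives about 1 in 20.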

How the results depend on the processing

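The number of genes called against untreated stayed within 1.5 times its reported value under every alternative run, at all 6 weeks. Between weeks 1 and 2, where no gene was called, 1 was called with the 2 groups fitted alone and 5 by the exact permutation test without adjustment. That test also called 3 between weeks 3 and 5. Between weeks 5 and 7 the count of 2 became 0 with the 2 groups fitted alone, 1 with a trended, robust prior variance and 0 with globin as a covariate, and it ranged from 0 to 4 as single kidneys were left out. Between weeks 1 and 9 the count of 3 became 1 with the globin covariate. The cause was not tested. Leaving out single kidneys turned the sign of 3 differences that had not passed: Mx2 between weeks 2 and 3 (-0.30 to 0.10), Mx1 between weeks 5 and 7 (-0.056 to 0.50) and Mx1 between weeks 7 and 9 (-0.36 to 0.22). Of single-gene results under the other settings, 609 kept direction and side of the threshold, 13 lost the call and 18 gained it. A weight for untreated and treated arrays was added after seeing the data.

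With the replicate number as a block, the counts called were 5, 4, 4, 4, 5 and 4 against untreated, 2 between weeks 5 and 7 and 3 between weeks 1 and 9, and no call changed. The numbers do not pair the mice: deviations of arrays with the same number had a median correlation of -0.006 over 93 pairs, and 11 of these exceeded 0.1.

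Averaging over probe sets was not run as a setting because each gene had 1, and single kidneys were not left out of the pairwise test at week 1 because 3 against 4 or 2 against 5 kidneys cannot reach p = 0.05 (smallest exact p 0.0571 and 0.0952). Signal over background limits Mx2, Ifit1bl2 and the interferon genes other than Ifna1, whose probe sets lay below the table's median in untreated kidneys.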
